A study of Neotoma lepida with 16 samples.

Results

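Livers of 4 Mojave woodrats fed juniper were compared with livers of 4 Great Basin woodrats fed juniper, 8 of the 16 desert woodrats (Neotoma lepida) in the study. The animals were chosen by population and diet as labelled, and every probe on the array other than the control probes was used. Mojave woodrats come from desert where creosote bush is the regular food, so they meet juniper as an unfamiliar plant, whereas Great Basin woodrats eat juniper in the wild. All animals were wild caught, were housed alone on rabbit chow for 3 months and were then given chow with a rising share of the plant for 5 days. Each juniper group held 2 males and 2 females. The other 8 animals were fed creosote in the same way, 4 Mojave woodrats, all male, and 4 Great Basin woodrats, 2 males and 2 females. They enter here to estimate the spread and to set the juniper comparison beside the same comparison on another plant. Animals kept on chow alone are not analysed here, so a difference between the populations on juniper cannot be told apart from one that was present before the trial. The comparison asks how the liver of a naive population and that of an experienced population differ on the same toxic diet.

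Juniper foliage is rich in terpenes, volatile plant compounds that a herbivore must clear. The liver does this in steps. Cytochrome P450 enzymes oxidise the compound, conjugating enzymes (UDP-glucuronosyltransferases, glutathione S-transferases and sulfotransferases) attach a water-soluble group, and membrane transporters export the product into bile or blood. Nuclear receptors that bind foreign compounds can raise the transcription of these genes, so tolerance of a plant diet can rest on the level of the enzymes as well as on their sequence.

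Each animal had its own array. Its RNA carried the red dye and an equal mixture of RNA from all 16 animals carried the green dye, so a value here is the log2 ratio of an animal to that pool: 0 is the level of the pool and 1 is 2-fold above it. The probes were designed for rat transcripts, so a difference in RNA level cannot be told apart from a difference between the populations in how well their sequence matches a probe. The share of probes well above background averaged 66.5% ± 12.4 in Mojave animals and 65.2% ± 11.2 in Great Basin animals (SD, n = 4 each), a difference of 1.27 percentage points (two-sided exact permutation test, p = 0.857, where the smallest p that 70 splits allow is 0.0286). The range was 48.4% to 75.4% in Mojave animals and 49.6% to 76.2% in Great Basin animals. On each of the 4 slides the Mojave juniper array was at position 3 and the Great Basin juniper array at position 4, so population and position cannot be told apart. The Great Basin creosote array was at position 1 and the Mojave creosote array at position 2, so the same holds on creosote. Each slide held 1 juniper animal of each population, of opposite sex, and the arrays of slide 1 were the dimmest in both. A transcript tag that separated the sexes on all 16 arrays, BE126320, fitted the labelled sex of every animal. On juniper it measured 0.96 and 0.69 in the Mojave males and 0.84 and 0.67 in the Great Basin males, against -1.78 and -1.81 in the Mojave females and -1.77 and -1.98 in the Great Basin females.

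Few genes passed the test between the populations on juniper, which with 4 animals each does not show that the livers were alike. Of 26525 genes and transcript tags tested, 3 passed an adjusted p of 0.05, or 0.0113% (limma with a sex term on all 16 arrays, Benjamini-Hochberg adjustment over all genes). Of these, 1 was higher in Mojave animals, 0.00377% of the genes tested, and 2 were lower, 0.00754%. Background correction used an offset of 50, which draws dim ratios towards 0. The difference was then within 0.5 on the log2 scale for 98.7% of genes, against a median standard error of 0.0893. At least a 2-fold difference was fitted for 38 genes, 26 higher and 12 lower in Mojave animals, and none of these 38 other than Nap1l2 passed the test. An unadjusted p under 0.05 was found for 2132 genes (8.04%), 1197 of them higher in Mojave animals (4.51%) and 935 lower (3.52%). The 4 Mojave and the 4 Great Basin values did not overlap for 1752 of the 26164 genes with 8 values (6.7%), higher in Mojave animals for 920 (3.52%) and lower for 832 (3.18%). The difference was above 0 for 48.0% of the genes tested. These percentages are the background for every count below.

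Over all genes the populations separated in part. In the 26164 genes with 8 values, population took 23.6% of the variance on 1 degree of freedom, sex 16.5% on 1 and slide 37% on 3, where an equal share per degree of freedom would be 14.3%. On the first principal component, which held 26.9% of the variance, the Mojave animals lay between -18.9 and 1.07 and the Great Basin animals between 3.54 and 17.6. The Mojave animal nearest to the Great Basin group was the male on slide 4, Mojave animal 2. The log2 ratios correlated across genes with a median r of 0.362 over the 6 pairs of Mojave animals and 0.400 over the 6 pairs of Great Basin animals, against 0.245 over the 16 pairs that crossed the populations. The ranges overlapped, from 0.251 to 0.402 within Mojave animals, 0.368 to 0.510 within Great Basin animals and 0.101 to 0.479 across. These r values are descriptions, since genes are not independent replicates and all ratios share the pool.

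**Figure D1:**
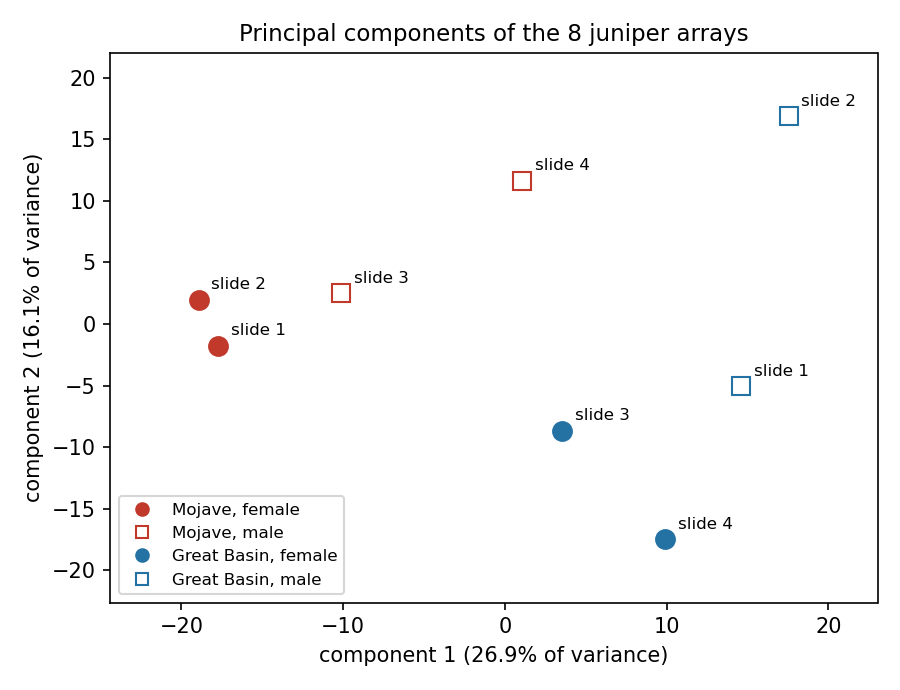
First and second principal components of the log2 ratios of the 8 juniper arrays, with the share of variance of each on its axis. Red points are Mojave animals and blue points Great Basin animals, with females filled and males open. Along component 1 the Mojave animals lie from -18.9 to 1.07 and the Great Basin animals from 3.54 to 17.6, without overlap.

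The call higher in Mojave animals was Nap1l2 (NM_001024789), nucleosome assembly protein 1-like 2, a member of the family of histone chaperones that load histones onto DNA. It measured 0.56, -0.10, 0.82 and 0.54 in Mojave animals 1 to 4, against -0.65, -0.70, -0.46 and -0.56 in Great Basin animals 1 to 4. The groups did not overlap, and Mojave animal 2 was the lowest of its group. The difference was 1.05 ± 0.14 (SE), or 2.07-fold, with an adjusted p of 0.0461. It was 0.74 in males and 1.36 in females, and Mojave was above Great Basin on all 4 slides, by 0.60 to 1.28. With slide as a block the adjusted p was 0.0461. On creosote, Nap1l2 averaged -0.71 in Mojave animals and -0.63 in Great Basin animals, with a fitted difference of -0.03 (unadjusted p = 0.846), so the high values were those of Mojave animals on juniper. The arrays of Mojave animals on juniper were also the only ones at position 3. The difference between the population effects on the diets had an adjusted p of 0.085 for Nap1l2. A single probe stood for this gene, and it was well above background on all 8 juniper arrays but not on every creosote array. The size of its difference on juniper depended on the background step. It was 1.61 with an offset of 10, and 2.57 on the processed signals as deposited, where no gene passed.

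The calls lower in Mojave animals were M23885, a rat T-cell receptor beta-chain variable-region transcript, and BF548061, an expressed sequence tag without a named gene. M23885 measured 0.59, 0.71, 0.67 and 0.59 in Mojave animals, against 1.10, 1.20, 1.17 and 1.03 in Great Basin animals. The spread within each group was small, with an SD of 0.061 in Mojave and 0.0767 in Great Basin animals, and no value came near the other group. The difference was -0.49 ± 0.07 (SE; adjusted p = 0.0461), and it was -0.51 to -0.44 within the 4 slides. A second probe for the same transcript gave -0.10. Of the lymphocyte markers, 10 of 16 were measured and none had an unadjusted p under 0.05. Their differences were above 0 for 7 and below 0 for 3, from -0.10 to 0.61. The T-cell receptor partners Cd3d and Cd3g differed by -0.10 and -0.01, the T-cell kinase Lck by 0.09 and the co-receptor chain Cd8b by 0.03. The median of the lymphocyte list lay between 0.04 and 0.10 in Mojave animals and between -0.08 and 0.07 in Great Basin animals. BF548061 measured -0.99, -0.83, -0.52 and -0.46 in Mojave animals, against 0.18, 0.05, -0.14 and -0.05 in Great Basin animals. Its difference was -0.71 ± 0.10 (SE; adjusted p = 0.0461), from -1.16 to -0.39 within the slides. With slide as a block, M23885 and BF548061 had an adjusted p of 0.11 each. On creosote the difference was 0.15 for M23885 and -0.12 for BF548061.

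These calls stood close to the threshold, and how many genes pass depended on the arrays in the fit. Leaving out any 1 of the 8 juniper animals gave 0 calls, except Mojave animal 2, without which 15 genes passed. Leaving out a creosote animal gave 0 to 6. A fit of the 8 juniper arrays alone, with the sex term, called 72 genes (0.271%), 53 higher in Mojave animals (0.2%) and 19 lower (0.0716%), the above 3 among them. The median SD within a group, after the mean of each sex, was 0.0986 in Mojave and 0.0959 in Great Basin animals on juniper, against 0.124 in Mojave and 0.125 in Great Basin animals on creosote. Weighting the 16 arrays by their spread called 64 genes. Of the 72 and the 64, 30 genes were in both, 41.7% of the first set and 46.9% of the second. Without the dimmest slide no gene passed, with 1400 genes at an unadjusted p under 0.05.

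**Figure D2:**
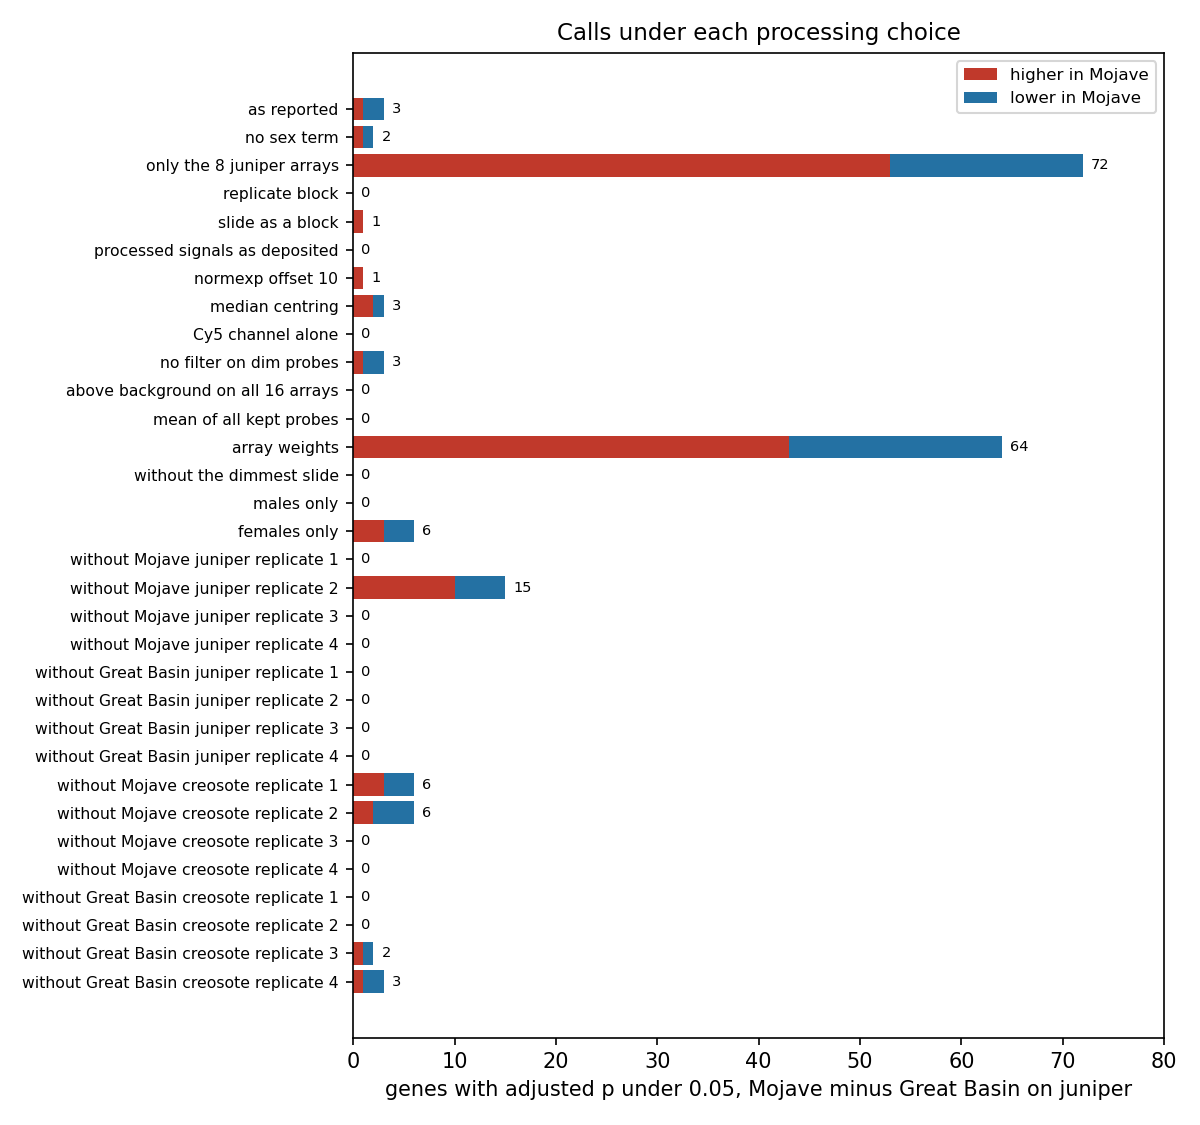
Number of genes with an adjusted p under 0.05 for Mojave minus Great Basin on juniper, under each processing choice. The red part of a bar counts genes higher in Mojave animals and the blue part genes lower. The bars reach 72 for the 8 juniper arrays alone, 64 with array weights and 15 without Mojave animal 2, and most of those that leave out another animal are at 0.

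The genes that passed in the fit of the 8 juniper arrays and not in that of 16 were looked up after their values were seen. Among the 53 higher in Mojave animals were Myc, the transcription factor that drives growth and ribosome production, Madh7 (now Smad7), an inhibitor of transforming growth factor beta signalling, Id1, an inhibitor of differentiation factors, and Spbc25 (now Spc25), a part of the kinetochore to which spindle fibres attach. Myc measured 0.19, -0.47, 0.56 and 0.10 in Mojave animals, against -1.13, -1.09, -1.62 and -2.24 in Great Basin animals. The groups did not overlap, and the difference was 1.61 ± 0.40 (SE), with an adjusted p of 0.0133 in the fit of 8 arrays and 0.223 in that of 16. The SE given here and below is that of the fit of 16 arrays. Spbc25 measured -0.27, 0.10, 0.82 and 0.66 in Mojave animals, against -0.39, -0.94, -1.23 and -1.67 in Great Basin animals, a difference of 1.39 with adjusted p values of 0.00805 and 0.139 in these fits. Madh7 differed by 1.07 (adjusted p = 0.00213 over 8 arrays and 0.189 over 16) and Id1 by 1.10 (0.0415 and 0.521). The smallest p over the 8 arrays was that of Mrps35, a protein of the mitochondrial ribosome. Its difference was 1.01 (adjusted p = 0.00054 over 8 arrays and 0.213 over 16). Among the 19 lower in Mojave animals was Runx3, a transcription factor of lymphocytes and epithelia, by -0.86 (adjusted p = 0.0415 over 8 arrays and 0.425 over 16). Pgls, an enzyme of the pentose phosphate pathway, differed by -0.41 (0.0415 and 0.455). Itgal, integrin alpha L, was among the 53 higher, by 0.98 (0.0415 and 0.33). Of these genes, Madh7 and Spbc25 also passed with array weights, whereas Myc, Id1, Mrps35, Runx3, Pgls and Itgal did not.

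**Figure D3:**
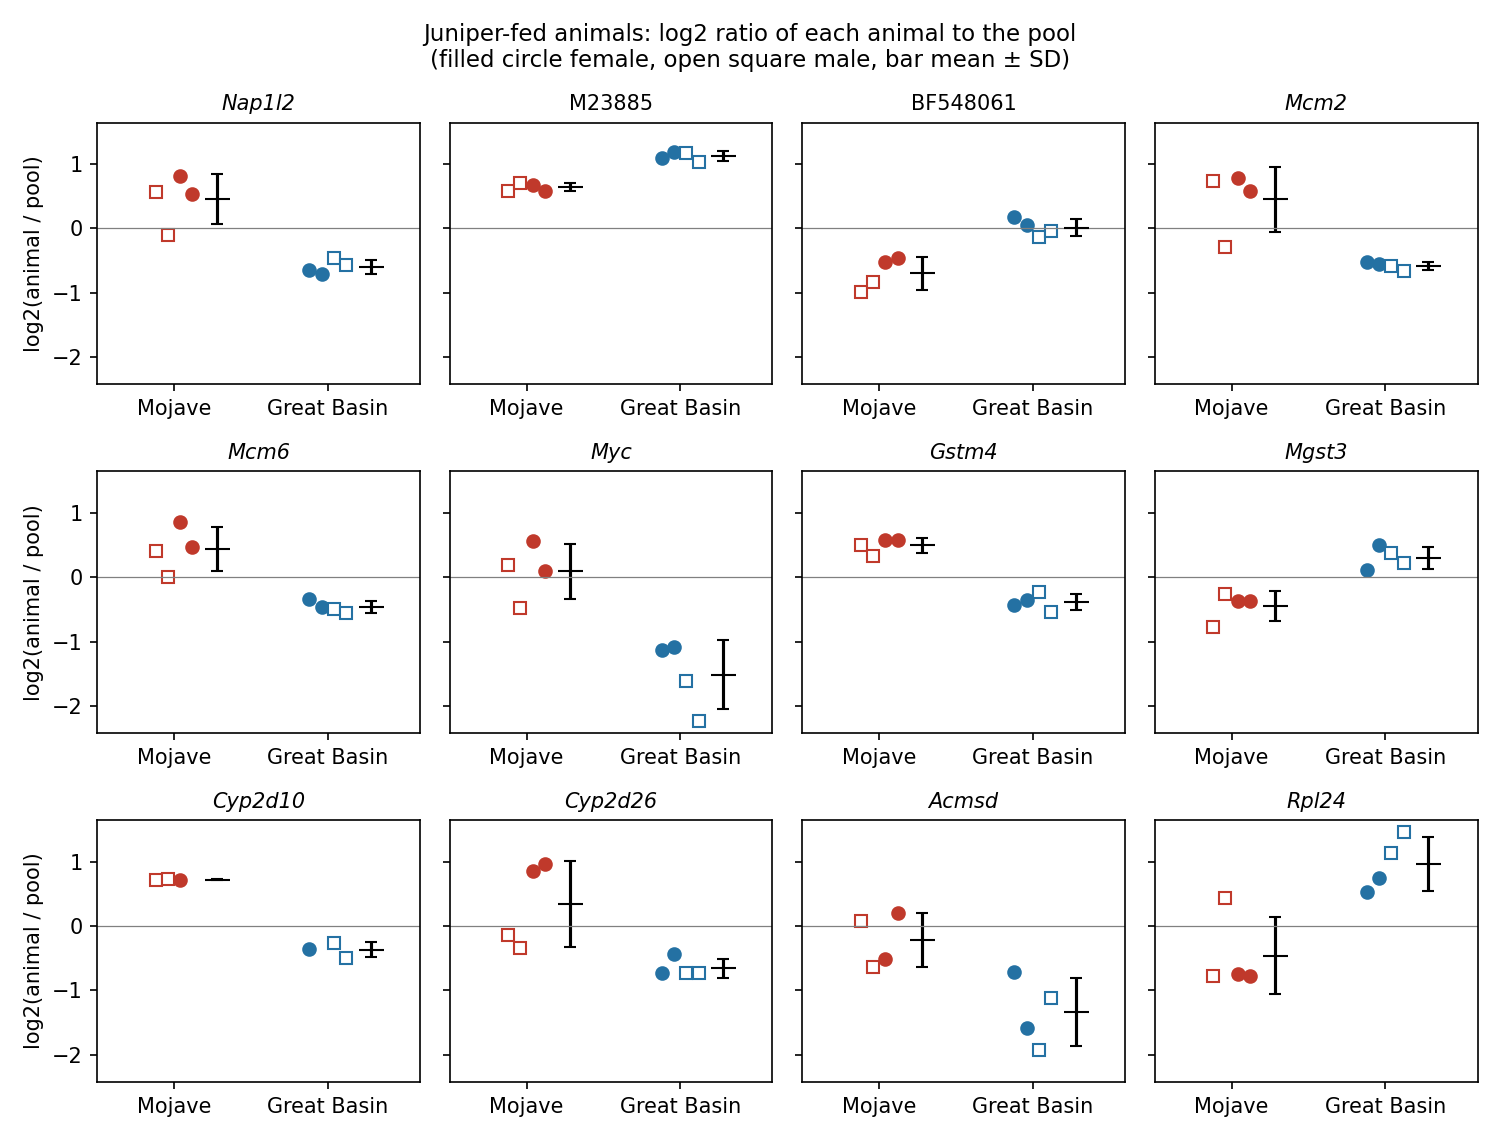
Log2 ratio of each juniper animal to the pool for 12 genes or tags, Mojave on the left of each panel and Great Basin on the right. Filled circles are females, open squares males, and the black bar gives the mean ± SD of the group. Nap1l2, M23885 and BF548061 passed the test over 16 arrays, and Cyp2d10 lacks 1 value in each group.

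Genes of DNA replication and the cell cycle mostly had higher values in Mojave animals, although no single gene passed. Of 37 measured members, none passed the test, and 13 had an unadjusted p under 0.05, all 13 higher in Mojave animals. That is 35.1% of the list, against a background of 4.51%. The difference was above 0 for 32 members and below 0 for 5, and the median was 0.16, against -0.005 over all genes. The MCM proteins form the ring-shaped helicase that opens DNA at replication origins, and 5 of its 6 subunits were among the 13. Mcm2 measured 0.73, -0.29, 0.78 and 0.58 in Mojave animals, against -0.52, -0.55, -0.58 and -0.66 in Great Basin animals. The Great Basin animals were nearly alike, and Mojave animal 2 stood close above them, apart from its group. The difference was 1.03 ± 0.21 (SE; adjusted p = 0.147), and a second probe gave 1.08. Mcm6 measured 0.41, 0.01, 0.86 and 0.47 in Mojave animals, against -0.34, -0.46, -0.49 and -0.56 in Great Basin animals, and its difference of 0.90 ± 0.19 (SE) had an adjusted p of 0.159 over 16 arrays and 0.0297 over the 8 juniper arrays. Mcm4 differed by 0.88 and Mcm5 by 0.77, both without overlap, but a second Mcm4 probe gave 0.17. Mcm7 differed by 0.46 with overlap. The remaining subunit, Mcm3, differed by 0.01 and was above background on 3 of 4 arrays in each group.

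The other members at an unadjusted p under 0.05 belonged to DNA synthesis and to the cell cycle engine. Pole2, a subunit of DNA polymerase epsilon, measured 0.24, 0.58, 0.58 and 0.14 in Mojave animals, against -0.32, -0.31, -0.56 and -0.42 in Great Basin animals, and its difference of 0.79 passed in the fit of 8 arrays (adjusted p = 0.0415). Pcna, the sliding clamp of DNA polymerases, differed by 0.33 on its brightest probe and -0.09 on the second, Tyms, which makes thymidylate, by 0.52, and Orc1l, of the origin recognition complex, by 0.34. Cdc2a (now Cdk1), the kinase of mitotic entry, differed by 0.69, cyclin E1 (Ccne1) by 0.71 (0.69 on its second probe), cyclin B1 (Ccnb1) by 0.37 (0.11) and Stk6 (now Aurka), a mitotic kinase, by 0.18. Other mitotic genes had differences near 0, such as Top2a at 0.09 (-0.07 on its second probe), Plk1 at 0.04 (-0.15) and Cdc20 at 0.02. The median of the list was 0.15, -0.05, 0.24 and 0.14 in Mojave animals 1 to 4, against -0.04, -0.05, -0.10 and -0.12 in Great Basin animals, so Mojave animal 2 lay within the range of the Great Basin group. Without that animal 16 members had an unadjusted p under 0.05 and a higher value, without the dimmest slide 8, in males alone 6 and in females alone 13. On creosote, 2 members were higher and 2 lower at this level, where the background over all genes was 14.1%, 5.34% higher and 8.74% lower, and the median was 0.01. The difference between the diets had an unadjusted p of 0.00179 for Mcm2 and 0.00361 for Mcm4, and no member passed that test after adjustment.

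Asf1a, a histone chaperone that hands histones to the replication machinery, was not on the list and was looked at after its values were seen. It measured 0.59, 0.44, 0.33 and 0.37 in Mojave animals, against 0.07, -0.13, 0.07 and -0.03 in Great Basin animals. The difference was 0.44 ± 0.08 (SE; adjusted p = 0.14), and 0.27 on a second probe, while on creosote it was -0.42.

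**Figure D4:**
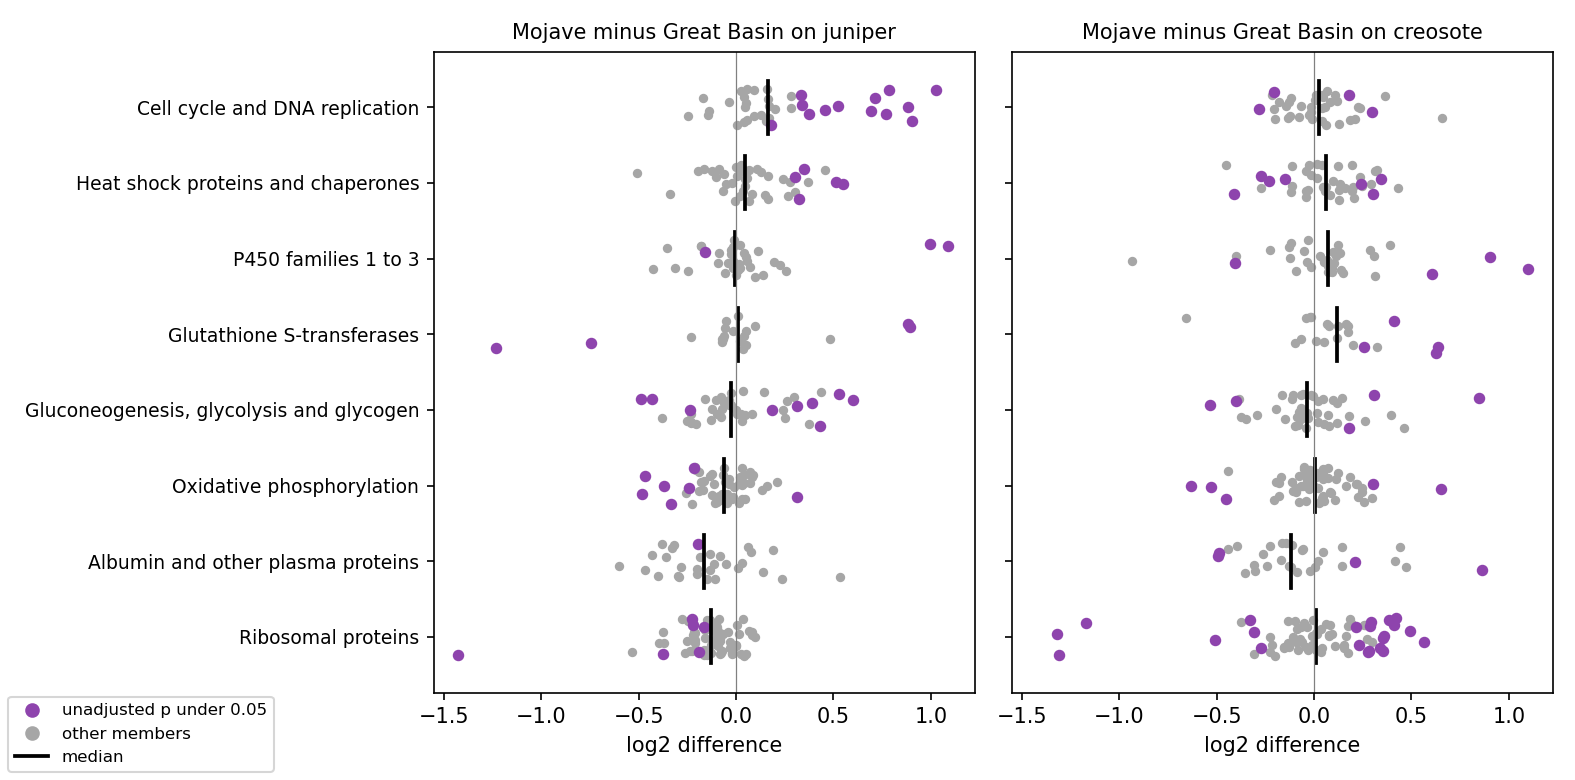
Fitted log2 difference, Mojave minus Great Basin, of each measured member of 8 gene lists, on juniper at left and on creosote at right. Purple points have an unadjusted p under 0.05 and black bars are medians. On juniper the 13 purple points of the cell cycle list all lie above 0, and the ribosomal proteins have a median of -0.13, a lean that is lost after median centring.

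Ribosomal proteins, the structural components of the ribosome, mostly had lower values in Mojave animals, except after median centring, which left 34 of 72 differences below 0. None of 72 measured members passed the test, 6 had an unadjusted p under 0.05, all lower in Mojave animals (8.33% of the list, against a background of 3.52%), and 61 of 72 differences were below 0. The median was -0.13 on juniper, and 0.01 on creosote, where 15 members were higher and 7 lower at the same level. Most differences were small. Rpl22 differed by -0.22, Rps12 by -0.19, and Rpl21 by -0.37, with its 5 probes between -0.41 and -0.33. Rpl24 stood apart from the rest of the list. It measured -0.77, 0.44, -0.74 and -0.77 in Mojave animals, against 0.52, 0.75, 1.13 and 1.46 in Great Basin animals. Mojave animal 2 was far above the rest of its group but still under every Great Basin animal, and the difference of -1.43 ± 0.26 (SE) had an adjusted p of 0.139 over 16 arrays and 0.0415 over 8. On creosote, in other animals, Rpl24 differed by -1.31.

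Subunits of oxidative phosphorylation, the mitochondrial chain that makes ATP, had 40 of 57 differences below 0, 28 to 43 over the alternatives, and a median of -0.06. None passed the test, with 1 higher and 6 lower in Mojave animals at an unadjusted p under 0.05. Ndufb7, a subunit of complex I, differed by -0.34, and Atp5j, of the ATP synthase, by -0.49.

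P450 enzymes of families 1 to 3, which carry out most oxidation of foreign compounds, had 16 differences above 0 and 18 below 0, from -0.43 to 1.09. None of 34 measured members passed the test. At an unadjusted p under 0.05, 2 were higher and 1 lower in Mojave animals, and the median was -0.01. The 2 higher members were both of subfamily 2D, which handles many plant alkaloids and drugs. Cyp2d10 measured 0.72, 0.73 and 0.72 in 3 Mojave animals, against -0.35, -0.26 and -0.49 in 3 Great Basin animals, with the spots of Mojave animal 4 and Great Basin animal 2 left out as outlier spots. The groups did not overlap, and the difference of 1.09 ± 0.24 (SE) had an adjusted p of 0.184 over 16 arrays and 0.0133 over 8. Cyp2d26 measured -0.13, -0.34, 0.86 and 0.96 in Mojave animals, against -0.74, -0.44, -0.73 and -0.73 in Great Basin animals. The Mojave females were the high animals and the Mojave males lay just above the Great Basin range, with a difference of 0.49 in males and a wider one in females. On creosote these genes differed by 0.60 and 1.10, in the same direction.

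The members named here of subfamilies 2B and 3A, the classic targets of inducing compounds in rodents, had smaller differences than those of 2D. Cyp2b2 measured 0.42, 0.64, 0.72 and 0.90 in Mojave animals, against 0.95, 0.82, 0.70 and 0.56 in Great Basin animals, a difference of -0.09 ± 0.21 (SE), and Cyp2b15 differed by 0.02 ± 0.28 (-0.25 on its second probe). Cyp3a3 differed by 0.26 ± 0.17 without overlap and Cyp3a11 by 0.01 ± 0.08. Cyp1a2, an oxidiser of aromatic compounds, differed by 0.05 (-0.19 on its second probe) and Cyp2e1, of small solvents, by -0.18. The member with a lower value at this level was Cyp1b1, by -0.16. In family 4, whose enzymes hydroxylate fatty acids, 1 of 7 members was higher and 1 lower at an unadjusted p under 0.05. Cyp4b1 measured 0.24, -0.00, -0.45 and 0.48 in Mojave animals, against -1.25, -1.46, -1.22 and 0.16 in Great Basin animals, a difference of 1.01 (unadjusted p = 0.0063) that was 1.05 on creosote. Great Basin animal 4 overlapped the Mojave range. Cyp4f2 differed by -0.53.

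Among glutathione S-transferases, which couple reactive products to glutathione, 2 of 21 members were higher and 2 lower in Mojave animals at an unadjusted p under 0.05, none passed over 16 arrays, and the median was 0.01. The mu-class enzyme Gstm4 measured 0.51, 0.32, 0.58 and 0.58 in Mojave animals, against -0.43, -0.35, -0.23 and -0.54 in Great Basin animals. The groups were far apart with little spread, and the difference of 0.88 ± 0.18 (SE) had an adjusted p of 0.147 over 16 arrays and 0.00805 over 8. Gstm2, of the same class, measured -0.24, -0.29, 0.12 and 0.29 in Mojave animals, against -0.85, -1.08, -0.80 and -0.95 in Great Basin animals, a difference of 0.89 with adjusted p values of 0.41 and 0.0297 in these fits. Mgst3, a transferase of the endoplasmic reticulum membrane, ran the other way, at -0.78, -0.26, -0.37 and -0.37 in Mojave animals, against 0.11, 0.50, 0.37 and 0.22 in Great Basin animals. Its difference was -0.75 ± 0.15 (SE; adjusted p = 0.147 over 16 arrays and 0.0487 over 8), and a second probe gave -0.60, while on creosote it was 0.41. Gstm5 differed by -1.24 by its brightest probe and by -0.15 and -0.03 by the others. The abundant rat enzymes Gsta2, Gstm1 and Gstp1 differed by 0.10, 0.05 and -0.01, with a second Gsta2 probe at -0.15.

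Other conjugating enzymes gave single genes. Of 12 members of the glucuronidation list, Ugdh, which makes the UDP-glucuronic acid that the transferases use, measured 0.63, 0.65, 0.17 and 0.56 in Mojave animals, against 0.14, 0.10, -0.14 and 0.03 in Great Basin animals, a difference of 0.47 (unadjusted p = 0.00876). The transferases themselves lay between -0.27 for Ugt1a6 and 0.18 for Ugt1a2. Tpmt, which methylates sulfur groups of drugs, measured -0.70, -0.61, -0.33 and -0.74 in Mojave animals, against -0.22, 0.29, 0.03 and 0.08 in Great Basin animals. The difference was -0.64 ± 0.16 (SE; adjusted p = 0.243) by its brightest probe and -0.16 by the second, and on creosote it was -0.71. Glyat, which couples acids to glycine, differed by -0.41. Of 12 sulfotransferases 1 was higher and none lower at an unadjusted p under 0.05. Among 45 aldehyde, alcohol and carbonyl enzymes, Dcxr, which reduces dicarbonyls and xylulose, differed by -0.41 without overlap (adjusted p = 0.19) and Cbr1, a carbonyl reductase, by 0.67 with overlap, 0.68 by its second probe.

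Of 30 genes of glutathione, thioredoxin and the targets of NRF2, the regulator of the response to oxidants, 3 were higher and 6 lower at an unadjusted p under 0.05, and none passed the test. Gclc, the rate-limiting enzyme of glutathione synthesis, differed by 0.27, a value that only 1 Great Basin array well above background and 3 Mojave arrays stand behind and that ran from 0.01 to 0.72 over the alternatives. G6pdx, which supplies NADPH, differed by 0.30 (0.22 on its second probe), and the peroxide reducers Prdx1 and Prdx2 by -0.33 and -0.25, these 3 without overlap. In haem synthesis, which supplies the prosthetic group of P450 enzymes, Alad differed by -0.31 (adjusted p = 0.275), Urod by -0.34 and Uros by -0.30, whereas Alas1, the rate-limiting enzyme, differed by -0.13. A second Urod probe gave -1.34.

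No gene of the carrier and receptor lists passed the test over 16 arrays. Slco1a5, an uptake carrier for bile salts and organic anions, measured 0.65, 1.38, -0.23 and 0.56 in Mojave animals, against -0.85, -0.99, -1.51 and 0.45 in Great Basin animals. Great Basin animal 4 was within the Mojave range, and the difference of 1.31 ± 0.37 (SE) had an adjusted p of 0.318. It was 0.89 on creosote. Of 34 ABC transporters 2 were higher and 1 lower at an unadjusted p under 0.05 (5.88% and 2.94%, against 4.51% and 3.52% of all genes). The lower was Abcg5, of the sterol exporter of bile, at -0.33, -0.25, -0.44 and -0.21 in Mojave animals, against 0.09, 0.19, 0.08 and 0.38 in Great Basin animals, a difference of -0.49 (adjusted p = 0.296) that was -0.56 on creosote. Abce1, which recycles ribosomes, differed by 0.53. Of 39 xenobiotic and nuclear receptors 2 were higher at an unadjusted p under 0.05 (5.13%, against 4.51% of all genes) and none lower. These were the retinoic acid receptors Rara and Rarb, at 0.26 and 0.24, with a second Rarb probe at 0.09.

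No gene of the lipid, bile acid and retinoid lists passed the test over 16 arrays. Fgf21, a liver hormone of fasting and of protein restriction, measured -0.07, 0.24, -0.23 and -0.54 in Mojave animals, against 0.52, 0.21, 0.45 and 0.44 in Great Basin animals, a difference of -0.56 ± 0.13 (SE; adjusted p = 0.19) with a narrow overlap. Gpam, the first enzyme of triglyceride synthesis, ran the other way, by 0.71 without overlap. Slc27a2, which activates very long fatty acids, differed by -0.56 (-0.29 on its second probe), and Acadm and Etfb, of mitochondrial beta-oxidation, by -0.24 and -0.27, all without overlap. Slc27a5, which couples bile acids to coenzyme A, measured -0.50, -0.52, -0.65 and -0.62 in Mojave animals, against -0.04, -0.05, -0.24 and -0.10 in Great Basin animals. Its difference of -0.46 passed over 8 arrays (adjusted p = 0.0474) and not over 16 (0.521), and a second probe gave 0.03. The apolipoproteins Apoa4 and Apoa5 differed by -0.61 and -0.36. Insig2, a brake on cholesterol synthesis, had a difference of 1.03 from 2 Mojave and 3 Great Basin values and -0.08 by its second probe. Cyp26a1, which degrades retinoic acid, measured -0.68, -0.50, -0.48 and -0.35 in Mojave animals, against -1.09, -0.85, -1.23 and -0.83 in Great Basin animals, a difference of 0.50 without overlap (adjusted p = 0.422).

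In carbohydrate metabolism 6 of 43 genes were higher and 3 lower at an unadjusted p under 0.05. The lower ones included Pc and Fbp1, enzymes of gluconeogenesis. Pc measured -0.26, -0.23, -0.48 and -0.48 in Mojave animals, against 0.15, 0.03, 0.08 and 0.01 in Great Basin animals, a difference of -0.43 (adjusted p = 0.268) that was -0.40 on creosote. Fbp1 differed by -0.49 without overlap, and by -0.59 on its second probe. The higher ones included Slc2a1, a glucose transporter, by 0.60, and G6pc, which releases glucose from the liver, by 0.53 (0.17 on its second probe). In amino acid breakdown, 2 of 37 genes were higher and 2 lower at this level (5.41% each, against 4.51% and 3.52% of all genes). Fah differed by -0.34 and Gcsh by -0.21 (-0.04 on its second probe). Acmsd, which steers tryptophan away from NAD synthesis, measured 0.08, -0.63, -0.51 and 0.21 in Mojave animals, against -0.71, -1.58, -1.92 and -1.12 in Great Basin animals. Oat, which converts ornithine, measured 0.11, -0.20, -0.02 and -0.78 in Mojave animals, against -0.97, -1.36, -1.64 and -1.76 in Great Basin animals. Both were without overlap, with differences of 1.12 ± 0.26 and 1.21 ± 0.33 (SE) and adjusted p values of 0.189 and 0.276. Among clock genes, 4 of 20 were at an unadjusted p under 0.05, 2 in each direction. Arntl (now Bmal1), of the positive limb, differed by 0.85 with overlap and Per3, of the negative limb, by -0.35 without. The clock kinases Csnk1d and Csnk1e ran opposite ways, by 0.26 and -0.70 without overlap, with second probes at -0.27 and -0.34. Per2 differed by -0.64 with overlap.

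Chaperones had 29 of 41 differences above 0, with 5 higher and 0 lower in Mojave animals at an unadjusted p under 0.05 (12.2% of the list higher, against 4.51%). Hsf2, a heat shock transcription factor, measured -0.01, 0.07, 0.06 and 0.29 in Mojave animals, against -0.26, -0.37, -0.64 and -0.35 in Great Basin animals, and its difference of 0.51 passed over 8 arrays (adjusted p = 0.0487) and not over 16 (0.31). Fkbp4, a partner of Hsp90, differed by 0.55, and by 0.16 and -0.03 on its other probes, and Cct4, of the cytosolic chaperonin, by 0.32. Gadd45b, a growth arrest and stress gene, measured 0.33, 0.57, 0.82 and 0.25 in Mojave animals, against 0.13, -0.55, -0.66 and -0.55 in Great Basin animals, a difference of 0.90 ± 0.20 (SE; adjusted p = 0.178), whereas Gadd45a differed by -0.49. Albumin and other secreted plasma proteins had 22 of 30 differences below 0 and a median of -0.17, with 1 member, Serpina4, at an unadjusted p under 0.05 (-0.20).

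No marker of a cell type passed the test between the populations over 16 arrays. Over the 9 marker lists 102 genes were measured. At an unadjusted p under 0.05, 2 were higher and 4 lower in Mojave animals, against 4.51% and 3.52% of all genes. The medians of the lists lay between -0.06 and 0.06. All 15 hepatocyte markers measured were well above background on at least 3 arrays of each group, as fits the labelled tissue, and 1 of them, the receptor subunit Asgr2, was at an unadjusted p under 0.05 (-0.55). The endothelial kinase Tie1 measured 0.33, 0.18, 0.26 and 0.29 in Mojave animals, against -0.34, -0.19, -0.13 and -0.08 in Great Basin animals, a difference of 0.45 ± 0.09 (SE; adjusted p = 0.141 over 16 arrays and 0.0487 over 8), but a second probe gave 0.03. Cd14, of Kupffer cells, differed by -0.32 and by 0.00 on its second probe. In whole liver, more cells of a type and more RNA per cell cannot be told apart.

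On creosote the same comparison gave 21 calls, a count that ran from 0 to 473 when 1 animal was left out (473 without Great Basin creosote animal 4). These were 21 of 26552 genes (0.0791%), 9 higher (0.0339%) and 12 lower (0.0452%) in Mojave animals, and none of the 3 juniper calls was among them. Bhmt, which remethylates homocysteine with betaine, was lower on creosote by -1.40 and differed by -0.47 on juniper, but its second probe gave 0.01 on creosote and -0.06 on juniper. Over 26524 genes the population differences on the diets correlated with an r of 0.0559, and 46.6% had the same sign. The comparisons share no animals, but they share the pool, the slides and the fitted spread of each gene. Each group also had its own array position. Position therefore cannot be told apart from the population difference on either diet, or from the difference between diets. Of the 2132 genes at an unadjusted p under 0.05 on juniper, 184 were at that level with the same sign on creosote and 324 with the opposite sign. Over all genes tested on creosote, 14.1% were at that level. Because both tests share the spread of a gene, these counts are not independent of the choice by juniper p. A few of the widest differences had the same size on both diets, and they were picked after their values were seen. Usp49, a deubiquitinating enzyme, differed by -0.81 on juniper and -0.72 on creosote, and Myc by 1.61 and 1.57. RGD1309995, a predicted gene, had the widest difference on juniper, 2.40 (adjusted p = 0.303). It measured 0.43, 0.42, 0.54 and 0.44 in Mojave animals, against -3.26, -3.29, -0.81 and -0.39 in Great Basin animals, so the females of the Great Basin group made most of it, and a second probe gave 0.13. It differed by 1.42 on creosote.

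**Figure D5:**
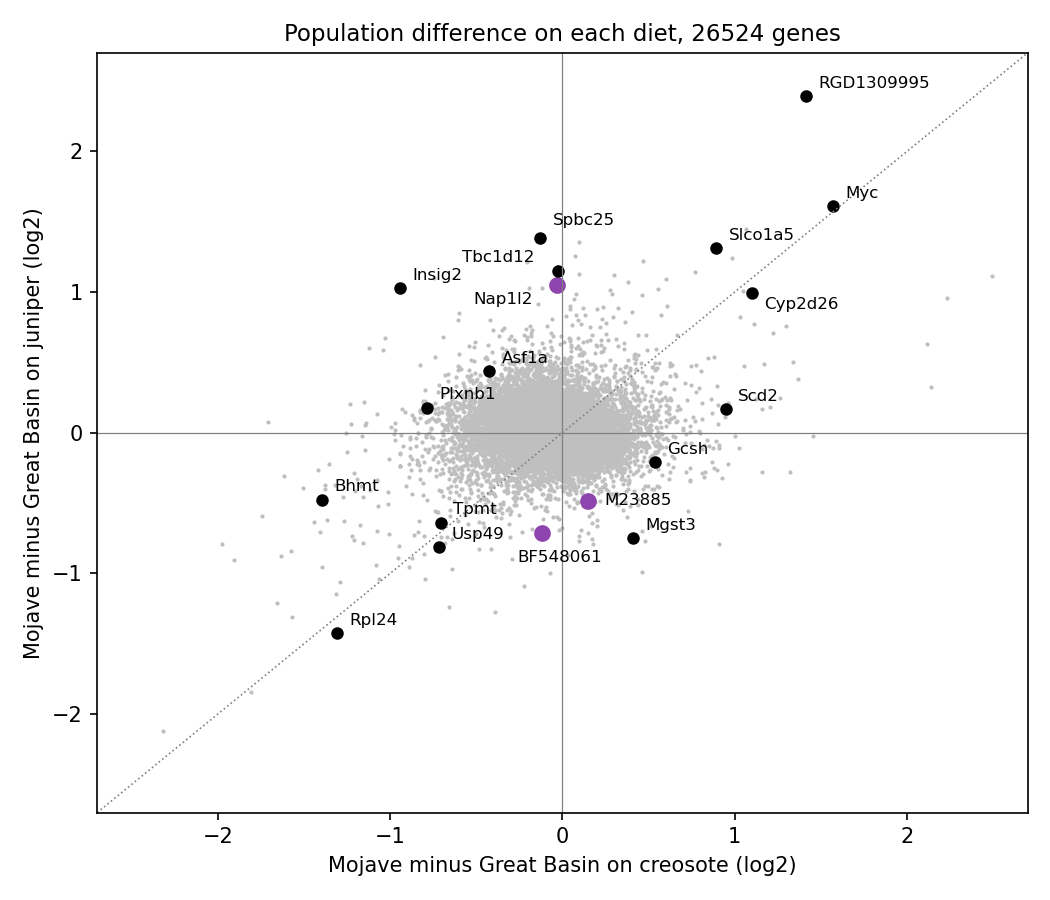
Fitted log2 difference, Mojave minus Great Basin, on juniper (vertical) against that on creosote (horizontal) for 26524 genes, grey, with the dotted line where both are equal. The 3 purple points passed the test on juniper. Nap1l2 sits at 1.05 on juniper and -0.03 on creosote, whereas Rpl24, Usp49 and Myc lie near the dotted line.

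No gene passed the test of the difference between these population effects, by limma at an adjusted p of 0.05, while 3443 of 26524 had an unadjusted p under 0.05 (13%), 7.88% with the juniper difference above the creosote one and 5.1% below it. The smallest adjusted p was 0.0543, shared by several genes. Among the 10 genes with a symbol and the smallest p were Asf1a, Pfdn5, a subunit of the prefoldin chaperone, at -0.26 on juniper and 0.44 on creosote, Plxnb1, a semaphorin receptor, at 0.18 and -0.79, and Terf1, a telomere-binding protein, at 0.44 and -0.42. Second probes lay closer to 0 on both diets, at 0.27 and -0.20 for Asf1a, -0.01 and -0.15 for Plxnb1 and 0.03 and 0.01 for Terf1. Without the sex term 65 genes passed this test.

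No gene passed the test of the difference between the sexes on juniper by limma, with 947 of 26465 at an unadjusted p under 0.05 (3.58%), 1.72% with the difference in males above that in females and 1.86% below it. Because the Mojave males and the Great Basin females shared slides 3 and 4 and the Mojave females and the Great Basin males shared slides 1 and 2, this contrast cannot be told apart from a contrast between slides on the juniper arrays. The leading gene with a symbol was Fignl1, an ATPase of DNA repair, at -0.02 in males and 0.79 in females, which was well above background in 3 Mojave animals and in 0 Great Basin animals, so its level in Great Basin animals is only bounded. Hmox2, a haem oxygenase, differed by 0.30 in males and 1.48 in females by its brightest probe, and by -0.05 over both sexes on its second.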

How the data were processed

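The files are the scanner output of 16 two-colour rat arrays (Agilent Feature Extraction 9.1.3.1, per the submitters' processing notes), with mean signals and local background deposited as linear intensity. The deposited log10 ratio was not used. The deposited log2 series values equal red over green of the processed signals to within 5e-10, animal over pool, with array medians from -0.179 to -0.00778. Of 45018 spots, 1639 were controls. Normexp (offset 50, which draws dim ratios towards 0) and then loess within arrays were applied with limma 3.58.1 under R 4.3.3, and outlier spots were dropped. Probes well above background in red on at least 4 of 16 arrays were kept, and a gene took its brightest probe, giving 26555 genes or tags, 10382 with a symbol. Limma fitted 4 group means and sex (11 residual degrees of freedom, prior 4.02). For 30 genes no juniper difference could be estimated. Precision is limited by how many arrays there are. The code was tested on simulated data.

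Members, 48 gene lists and tests were chosen with earlier results of these data known. Named genes are those past the threshold, up to 4 members per list by smallest p, and others said to be chosen after their values were seen. Further cell cycle, P450, transferase, lymphocyte marker and carbohydrate genes were also named after their values were seen. Replicates are separate animals per the labels. Symbols are those of the array design. Some genes are not reported here.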

Additional observations from a re-analysis of the deposited data

Results flagged for a closer look

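Within groups of 4 animals, a highest or lowest value was taken as standing apart when its gap to the nearest animal was above Dixon's critical share of the group's range. Of 195 groups looked at, 10 held such a value, where chance gives about 1 in 20 groups. Mojave animal 2 measured 0.438 for Rpl24, with the nearest of its group at -0.742. Mojave animal 3 measured 0.543 for RGD1309995 (nearest 0.435), and Mojave animal 4 measured 0.157 for P4hb, a protein disulfide isomerase (nearest -0.043). Great Basin animal 2 gave 4 of the 10: -0.442 for Cyp2d26 (nearest -0.731), 0.338 for Cbr1 (nearest -0.678), 0.47 for Per3 (nearest 0.248) and 0.681 for Cfi, a complement regulator (nearest -0.585). Great Basin animal 4 measured 0.164 for Cyp4b1 (nearest -1.22) and 0.335 for Rpl22 (nearest 0.189), and Great Basin animal 1 measured 0.13 for Gadd45b (nearest -0.552).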

How the results depend on the processing

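The count of 3 genes on juniper was 72 over the 8 juniper arrays alone, 64 with array weights, 6 in females only, 1 with slide as a block or with a normexp offset of 10, and 0 with the replicate number as a block, with the processed signals as deposited, with the red channel alone, with probes above background on all 16 arrays, with the mean of all kept probes, without the dimmest slide and in males only. Leaving out each animal gave 0 to 15, with 15 without Mojave juniper animal 2. The count on creosote was 21, and 283 with no sex term, 3112 with median centring, 5 in males only, 2 with the red channel alone and 0 with the processed signals or without the dimmest slide, with 0 to 473 when each animal was left out (473 without Great Basin creosote animal 4). The count for the difference between diets was 0, and 2411 with median centring, 65 with no sex term, 32 with array weights, 14 with slide as a block, 10 with the mean of all kept probes and 1 with the replicate block or the red channel alone, with 0 to 335 when each animal was left out. That between sexes was 0, and 1 over the 8 juniper arrays and 2 without the dimmest slide, with 0 to 2 when each animal was left out. The cause of these changes was not tested. The difference in the share of probes above background was -3.94 to 7.29 percentage points when each animal was left out.

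On juniper the replicate numbers coincide with the slides. Deviations of same-numbered Mojave and Great Basin animals from their group means had r of -0.0473, -0.0602, 0.0437 and -0.0497. These animals were of opposite sex and sex was not removed. The r therefore cannot show whether animals on the same slide deviated together. The numbers were not taken as pairs in the main fit, and fits with the number or the slide as a block are among the alternatives. The 3 called genes lost their call in 63 alternatives: 18 of 30 for Nap1l2, 22 of 31 for M23885 and 23 of 31 for BF548061. Of 557 values of 18 leading genes under the alternatives, none changed sign and 25 came to pass the threshold. These genes were chosen with these data known, so their kept sign is not separate support. Of 116 genes chosen for the text, 104 kept their direction in every alternative. Few animals and dim probes limit what small differences can show.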
